A study of Mus musculus with 75 samples.

Results

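The comparison described here set 16 gastrocnemius libraries from tumour-bearing mice given 5-fluorouracil (5-FU; 8 females and 8 males) against 15 from tumour-bearing mice given saline (7 females and 8 males). All 31 animals were BALB/c mice carrying the C26 colon carcinoma (colon-26, a mouse tumour line widely used to produce cachexia). Libraries were assigned by treatment and sex as their titles gave them, and these 31 are part of a series of 75 labelled samples. Treatment began 12 days after the C26 cells were injected, at 75% of the maximum tolerated dose, with 2 injections a week over 2 cycles, and muscle was collected on day 25. The animals' age was not given in the sources used here. Saline was the vehicle. A further 15 libraries came from mice injected with phosphate-buffered saline (PBS) in place of tumour cells and given saline, and their levels are printed beside the others. No PBS mice received 5-FU, so an action of the drug on the muscle and an action through the tumour cannot be told apart, and tumour size was not analysed here. One further library, titled C26 saline but labelled 5-FU in its treatment field, was left out.

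5-FU is a pyrimidine analogue that blocks thymidylate synthase and is built into RNA and DNA, and it acts mainly on dividing cells. In C26 cachexia, interleukin-6 (IL-6) and related cytokines act through the receptor subunit gp130 and the transcription factor STAT3, which switch on acute-phase genes in liver and in muscle. Wasting muscle raises the ubiquitin ligases atrogin-1 and MuRF1, which mark muscle proteins for the proteasome.

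Values are the authors' log2 expression, in which a difference of 1 is a 2-fold change, and low genes have their changes understated by the small offset inside the logarithm. Changes are 5-FU over saline with sex as a block, from limma across all 13856 genes, given with their standard error (SE) and a Benjamini-Hochberg adjusted p. A gene was said to have risen or fallen where this p was under 0.05. The labels do not say more of the replicates than their number, and p-values reflect library-to-library spread alone. For each gene the lowest, median and highest library of a group are given.

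Libraries held 11.4 to 40.5 M estimated counts, with a median of 22.9 M. The slope of a library's values on gene GC content was above 0.1 in 6 of 16 5-FU libraries (females 7 and 8, males 4, 5, 7 and 8) and 1 of 15 saline libraries (female 7). On the first principal component, which held 33.3% of the variance, 5 of the 7 stood apart at 43.4 to 68.3, while male 5-FU libraries 5 and 8, at 21.8 and 21.9, lay nearer to the highest of the other 24 at 12.2. They had 1.65 to 5.03% of their signal on mitochondrially encoded genes, against 4.67 to 17.7% in the other 24. In males the slope averaged 0.118 ± 0.253 with 5-FU and -0.105 ± 0.0582 with saline (SD, n = 8 each; exact permutation p = 0.0205, adjusted p = 0.123 over 6 tests). Male saline library 4 also stood apart, with low Stat3 and Mt2 and high Ighm values for its group. The 4 Y-linked genes were at 0 counts in 15 of 15 female libraries and were detected in every male library. All 12 muscle identity genes were measured, and none of 15 T and NK cell markers was in the table.

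With 5-FU, 1996 of 13856 genes (14.4%) differed from saline: 1007 rose (7.27%) and 989 fell (7.14%), while 4115 had an unadjusted p under 0.05. The median change over all genes was -0.02. Falls were the larger: 185 genes fell at least 2-fold and 38 at least 4-fold, against 112 and 10 that rose by as much. Acute-phase genes, metallothioneins, and markers of neutrophils and macrophages were among the falls. Fast-fibre, calcium-handling and glycolytic genes were among the rises, which had a median of 0.46 against -0.55 for the falls. The sign was the same in both sexes for 1993 of the 1996 genes. The 2 groups did not overlap at all in 1 gene, Saa3, which is described below with its counts. Without the 7 libraries of high GC slope the total was 1718, of which 820 rose and 898 fell. The fit without them called 566 of the 1007 rises (56.2%) and 646 of the 989 falls (65.3%). The total was 2300 without male saline library 4 and 3252 without female saline library 7.

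**Figure D1:**
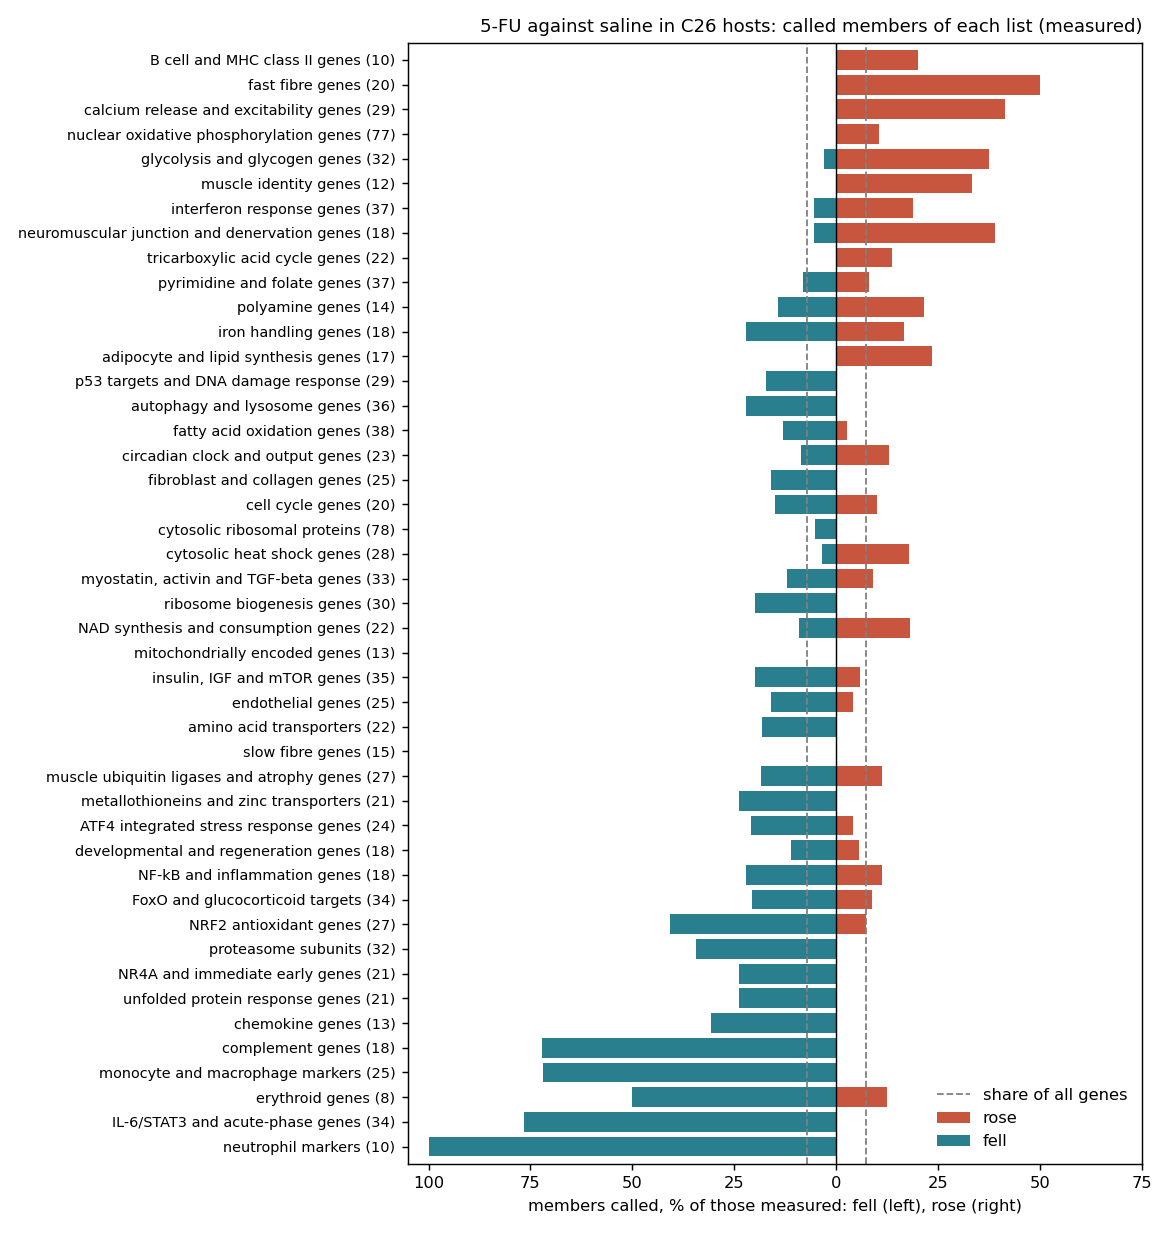
Members of each gene list that fell (bars to the left) or rose (bars to the right) with 5-FU against saline, sexes pooled, as a percentage of the members measured, whose number stands in brackets; dashed lines mark the shares of all genes, 7.14% fallen and 7.27% risen. The longest bars to the left are those of neutrophil markers (10 of 10), the acute-phase list (26 of 34), complement genes (13 of 18) and macrophage markers (18 of 25), and the longest to the right is that of fast fibre genes (10 of 20).

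Genes of IL-6/STAT3 signalling and the acute phase moved down together. Of 34 measured (of 41 listed), 26 fell and 0 rose, where 7.14% of all genes fell, and their median change was -1.12 against -0.02 for all genes. The mean level of the list in a library was 1.63 to 2.71 in 5-FU females against 2.63 to 4.26 in saline females. In males it was 1.73 to 2.89 with 5-FU and 3.03 to 4.03 with saline. The groups met only at the edge in females and did not overlap in males. In PBS mice the list stood at 1.41 to 1.90 in females and 1.48 to 2.36 in males. In the 24 libraries with a slope up to 0.1, 25 of the 34 fell.

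At the level of receptors, Il6ra, the IL-6 binding subunit, had values of 2.99, 4.04 and 5.43 with 5-FU and 4.16, 5.56 and 6.44 with saline. It fell by 1.34 ± 0.25 on the log2 scale (adjusted p = 0.000572). Osmr, the oncostatin M receptor, fell by 0.92 ± 0.15 (adjusted p = 0.000180), Il1r1, the signalling receptor for interleukin-1, by 0.86 ± 0.13 (adjusted p = 0.000121), and Il6st, which encodes gp130, by 0.38 ± 0.08 (adjusted p = 0.00285). Each of these 4 receptor genes thus stood lower with 5-FU, and Il6st moved least.

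Stat3 (ENSMUSG00000004040), the transcription factor that is activated through gp130 and that also drives its own gene, had values of 5.95, 6.32 and 6.98 with 5-FU. In saline libraries it had 6.58, 7.68 and 8.08, and in PBS libraries 5.79, 5.93 and 6.41. All 16 5-FU libraries lay below the saline mean of their sex, and the groups overlapped only through the lowest saline libraries. Stat3 fell by 1.19 ± 0.13, a 2.29-fold lower level (adjusted p = 4.00e-06), with changes of -1.22 in females and -1.17 in males. In the 24 libraries with a slope up to 0.1 the change was -1.36.

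Socs3 (ENSMUSG00000053113), the feedback inhibitor of gp130 that STAT3 induces, had values of 0.67, 2.09 and 3.47 with 5-FU, 2.21, 4.80 and 7.74 with saline and 0.61, 1.5 and 3.60 in PBS mice. The saline libraries were widely spread and the 5-FU libraries lay at their lower end or below. Socs3 fell by 2.39 ± 0.40 (adjusted p = 0.000235). Cish, another SOCS family inhibitor, fell by 1.44 ± 0.38 (adjusted p = 0.0108). Cebpd, a C/EBP factor that takes part in acute-phase induction, fell by 1.22 ± 0.32 (adjusted p = 0.00965), while its relative Cebpb had medians of 6.87 with 5-FU and 7.04 with saline and no call (change -0.22 ± 0.21, adjusted p = 0.499). Junb, an immediate early gene that STAT3 can induce, fell by 2.28 ± 0.40 (adjusted p = 0.000355).

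Among the secreted targets, Serpina3n (ENSMUSG00000021091), a serine protease inhibitor of the acute phase, had values of 1.87, 3.40 and 5.11 with 5-FU, 4.41, 6.23 and 7.51 with saline and 0.52, 1.56 and 2.57 in PBS mice. All 5-FU libraries were below the saline mean of their sex and the 2 groups overlapped between 4.41 and 5.11. Serpina3n fell by 2.44 ± 0.30, 5.42-fold (adjusted p = 7.61e-06). It has near-identical neighbours in the genome, so reads may be split among copies. Lbp (ENSMUSG00000016024), which binds bacterial lipopolysaccharide, had 2.49, 3.47 and 4.71 with 5-FU against 4.24, 5.43 and 6.14 with saline, and fell by 1.74 ± 0.22 (adjusted p = 1.25e-05). Lcn2 (ENSMUSG00000026822), the iron-siderophore binder lipocalin-2, had -0.07, 2.20 and 4.03 with 5-FU against 1.13, 5.56 and 8.74 with saline. It fell by 3.05 ± 0.45 (adjusted p = 5.66e-05). Hp, the haemoglobin scavenger haptoglobin, fell by 1.78 ± 0.34 (adjusted p = 0.000863).

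The serum amyloid A genes, which encode acute-phase proteins, were at low levels in this muscle. Saa3 (ENSMUSG00000040026) had 0 estimated counts in 10 of 16 5-FU libraries and at most 6 in the others, against 2 to 74 in saline libraries. Its log2 values were -6.00, -5.21 and -2.31 with 5-FU and -2.18, -0.82 and 0.96 with saline, so the groups did not overlap, by a narrow margin. Saa3 fell by 3.51 ± 0.42 (adjusted p = 7.58e-06), though at such counts the size of the change depends on the offset. Saa1 (ENSMUSG00000074115) was at 0 counts in 4 of 16 5-FU libraries and fell by 3.37 ± 0.41 (adjusted p = 7.58e-06), and Saa2 fell by 2.52 ± 0.47 (adjusted p = 0.000657). The Saa genes are related in sequence, Saa1 and Saa2 most closely, so their separate values are uncertain. Bcl3, an NF-kB family co-regulator, and Timp1, an inhibitor of metalloproteinases, also fell, by 1.10 ± 0.21 and 1.31 ± 0.41. Myeloid cells also make Lcn2 and Saa3, and their markers fell as described below; the part of those cells in these values was not tested. Orm1, which encodes the acute-phase protein orosomucoid, was not called (change -0.35 ± 0.44, adjusted p = 0.628) and had opposite signs in the sexes, as given below.

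**Figure D2:**
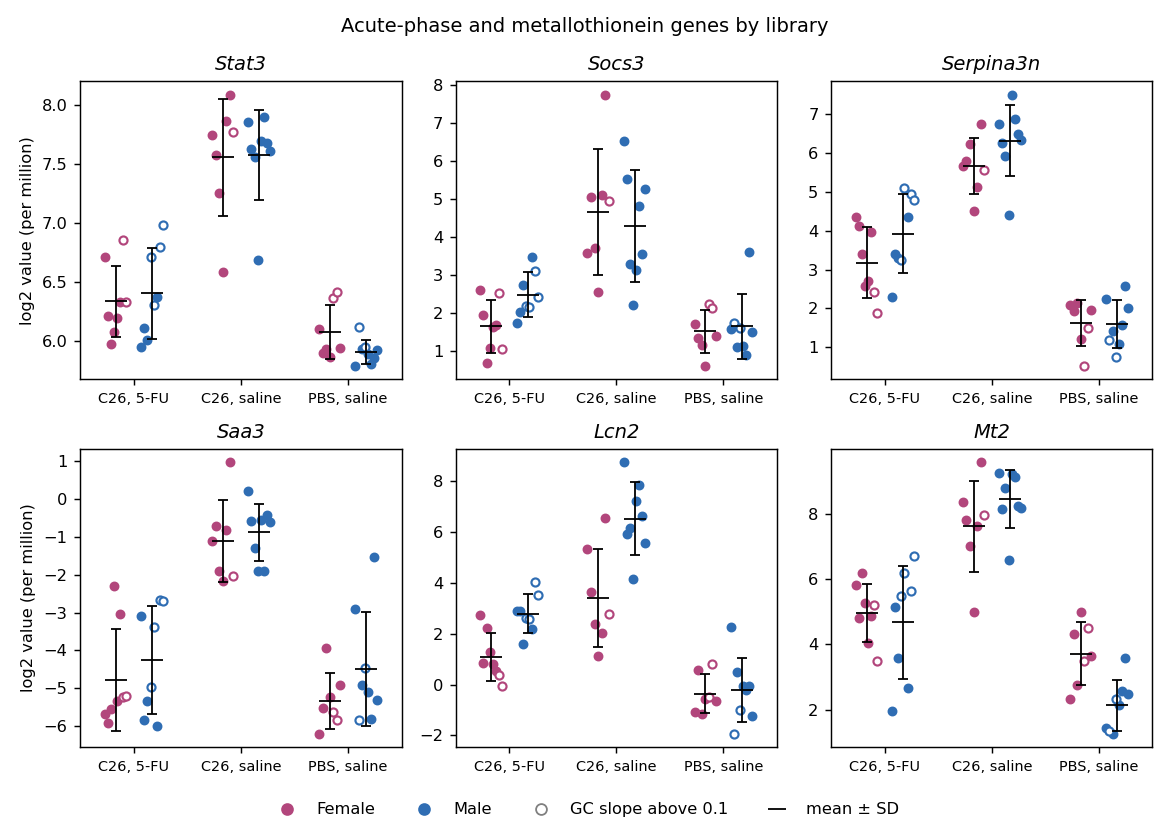
Log2 expression of 6 acute-phase and metallothionein genes in each library of the 5-FU, saline and PBS groups, by sex, with the mean and SD of each sex; open circles are libraries with a GC slope above 0.1. The 5-FU libraries lie below most saline libraries in each panel, with female and male Stat3 medians of 6.27 and 6.34 with 5-FU against 7.74 and 7.65 with saline.

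The promoters of Socs3 and of the acute-phase genes Saa3, Saa1 and Lcn2 are shown because these genes were among those that fell most; they were chosen after their values were seen. The sequences are from RefSeq (build GRCm38.p6), from 250 bases before the transcript start to 50 after, printed 5′ to 3′ on the gene's strand. In Socs3 (chr11:117969317-117969616, minus strand) the capitals mark the STAT motif TTCNNNGAA, which begins 154 bases before the start. In Saa3 (chr7:46715627-46715926), Saa1 (chr7:46742931-46743230) and Lcn2 (chr2:32387690-32387989), all on the minus strand, they mark the C/EBP motif TTGCNNAA. It begins 99 bases before the start in Saa3, on the opposite strand, 182 before in Saa1 and 216 before in Lcn2. The Saa3 match also fits the D-box TTATGNAA.
Socs3: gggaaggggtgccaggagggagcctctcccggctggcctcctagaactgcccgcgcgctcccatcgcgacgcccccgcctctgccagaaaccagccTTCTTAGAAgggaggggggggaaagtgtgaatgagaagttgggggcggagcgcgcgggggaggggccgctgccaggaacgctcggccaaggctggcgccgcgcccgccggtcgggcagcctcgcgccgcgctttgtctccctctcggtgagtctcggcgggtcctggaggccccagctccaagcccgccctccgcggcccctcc
Saa3: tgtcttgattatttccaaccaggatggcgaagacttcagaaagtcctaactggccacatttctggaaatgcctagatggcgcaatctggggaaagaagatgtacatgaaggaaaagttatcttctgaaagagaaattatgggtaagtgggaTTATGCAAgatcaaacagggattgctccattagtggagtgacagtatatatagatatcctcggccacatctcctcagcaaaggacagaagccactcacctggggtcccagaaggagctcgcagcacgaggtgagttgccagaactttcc
Saa1: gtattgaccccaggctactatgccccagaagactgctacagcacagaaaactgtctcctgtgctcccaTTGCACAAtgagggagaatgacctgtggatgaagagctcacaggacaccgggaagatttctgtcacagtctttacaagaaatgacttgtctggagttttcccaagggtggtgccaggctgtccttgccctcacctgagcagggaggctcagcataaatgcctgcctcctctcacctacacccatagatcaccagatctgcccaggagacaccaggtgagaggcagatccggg
Lcn2: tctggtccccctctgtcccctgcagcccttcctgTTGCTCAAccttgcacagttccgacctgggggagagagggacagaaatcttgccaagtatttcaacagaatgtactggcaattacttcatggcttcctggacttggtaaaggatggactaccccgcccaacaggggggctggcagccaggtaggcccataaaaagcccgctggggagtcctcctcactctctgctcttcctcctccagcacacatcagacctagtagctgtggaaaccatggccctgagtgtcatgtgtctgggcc

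Both strands were searched, and 10433 of the 13856 genes had a promoter entry. The STAT motif was found in 866 of those promoters (8.30%), in 85 of 736 genes that fell (11.5%) and in 52 of 765 that rose (6.80%). Of the fallen members of the IL-6/STAT3 list, 5 of the 21 with an entry held it: Cish, Serpina3i, Socs3, Steap4 and Tnfrsf1a. The C/EBP motif was found in 1048 promoters (10.0%), in 109 of 736 that fell (14.8%) and in 6 of those 21, namely Il1r1, Lcn2, Saa1, Saa2, Saa3 and Steap4. A match is a description of the letters in this window, not a binding site or a cause.

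Metallothioneins, small cysteine-rich proteins that bind zinc and copper and respond to metals, glucocorticoids and IL-6, were among the largest falls. Mt2 (ENSMUSG00000031762) had values of 1.97, 5.18 and 6.71 with 5-FU, 5.00, 8.18 and 9.56 with saline and 1.27, 2.57 and 5.00 in PBS mice. All 16 5-FU libraries lay below the saline mean of their sex, with overlap through the lower saline libraries. Mt2 fell by 3.23 ± 0.43, 9.36-fold (adjusted p = 1.37e-05). Mt1 (ENSMUSG00000031765) had 3.59, 5.63 and 6.92 with 5-FU against 5.41, 8.25 and 9.70 with saline, and fell by 2.70 ± 0.35 (adjusted p = 1.37e-05). The 2 genes are close copies, so their split is uncertain, though both moved the same way. Of 21 metallothionein and zinc transporter genes, 5 fell (23.8%, against 7.14% of all genes) and 0 rose, with a median of -0.18. Slc39a14, the zinc and iron importer ZIP14 of inflamed and wasting tissue, had 3.60, 4.09 and 5.51 with 5-FU against 4.11, 5.52 and 7.25 with saline. It fell by 1.30 ± 0.21 (adjusted p = 0.000154), with changes of -0.73 in females (adjusted p = 0.312) and -1.84 in males (adjusted p = 0.000501). Slc30a1, the zinc exporter that zinc induces, was not called (change -0.24 ± 0.15, adjusted p = 0.281).

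The promoters of both metallothionein genes are shown for the same reason and from the same source. The capitals mark the metal response element core TGCNCNC, on either strand. Mt2 (chr8:94172368-94172667, plus strand) held 6 matches and Mt1 (chr8:94178839-94179138, plus strand) held 3. This short core was present in 6710 of 10433 promoters (64.3%), in 61.1% of those of genes that fell and in 68.8% of those that rose.
Mt2: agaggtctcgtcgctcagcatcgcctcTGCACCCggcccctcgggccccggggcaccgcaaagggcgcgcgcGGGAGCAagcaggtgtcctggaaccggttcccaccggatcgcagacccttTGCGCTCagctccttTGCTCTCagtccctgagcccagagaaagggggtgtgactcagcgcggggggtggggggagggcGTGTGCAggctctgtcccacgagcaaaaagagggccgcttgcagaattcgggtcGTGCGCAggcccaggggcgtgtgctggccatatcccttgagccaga
Mt1: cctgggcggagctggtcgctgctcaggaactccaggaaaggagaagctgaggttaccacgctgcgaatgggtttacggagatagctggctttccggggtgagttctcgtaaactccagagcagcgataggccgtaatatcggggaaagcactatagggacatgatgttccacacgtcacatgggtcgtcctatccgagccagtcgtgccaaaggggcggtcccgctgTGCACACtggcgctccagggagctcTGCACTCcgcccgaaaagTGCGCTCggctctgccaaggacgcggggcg

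Markers of infiltrating myeloid cells were lower with 5-FU. All 10 measured neutrophil markers fell, where 7.14% of all genes did, with a median change of -2.54. The other 8 of the 18 listed were not in the table. The counts were low, and 2 of the 10 averaged at least 1 on the log2 scale. Csf3r, the receptor for granulocyte colony-stimulating factor, had values of -3.04, 0.09 and 1.94 with 5-FU, 0.20, 2.5 and 3.16 with saline and -1.52, -0.04 and 2.30 in PBS mice. The 5-FU libraries lay low with some overlap, and Csf3r fell by 2.38 ± 0.39 (adjusted p = 0.000157). S100a8 and S100a9, the calprotectin subunits of neutrophils, fell by 3.37 ± 0.57 and 3.12 ± 0.54 (adjusted p = 0.000235 and 0.000333). S100a8 was at 0 counts in 3 of 16 5-FU libraries. Mmp9, gelatinase B, fell by 1.76 ± 0.24 (adjusted p = 1.67e-05), and Il1b, the cytokine interleukin-1 beta, by 2.76 ± 0.42 (adjusted p = 8.67e-05). The summed linear level of the 10 markers, which include the lysozyme gene Lyz2 that macrophages also use, was 24.2 to 60.1 with 5-FU, on the scale of counts per M reads, and 40.0 to 102 with saline. In bulk muscle, fewer cells of a type and less RNA per cell cannot be told apart.

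Of 25 monocyte and macrophage markers, 18 fell (72.0%, against 7.14% of all genes) and 0 rose, with a median of -0.69. Their summed level was 103 to 273 on the same scale with 5-FU and 184 to 326 with saline. Lyve1, a hyaluronan receptor of resident macrophages and lymphatic endothelium, had 1.92, 2.93 and 3.66 with 5-FU against 2.98, 3.98 and 4.80 with saline. It fell by 1.05 ± 0.18 (adjusted p = 0.000308). Fcgr3, an IgG receptor, fell by 0.86 ± 0.15 (adjusted p = 0.000371), and Cd163, the haemoglobin-haptoglobin receptor, by 0.92 ± 0.18 (adjusted p = 0.00121). The C1q genes C1qa, C1qb and C1qc, made by macrophages, fell by 0.57, 0.63 and 0.66.

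Also low with 5-FU were Fcna, the lectin ficolin A of macrophages, which fell by 1.60 ± 0.24 (adjusted p = 5.90e-05), and Mmp3, the matrix protease stromelysin-1, by 2.02 ± 0.39 (adjusted p = 0.000834). Tmem252, a transmembrane protein gene, had -2.24, 0.00 and 1.90 with 5-FU, 0.87, 2.74 and 3.37 with saline and -1.86, -0.58 and 0.40 in PBS mice, and fell by 2.51 ± 0.32 (adjusted p = 1.36e-05).

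Complement genes showed the same direction, with 13 of 18 fallen (72.2%, against 7.14% of all genes), 0 risen and a median of -0.66. Among the 13 were C1qa, C1qb and C1qc, already counted with the macrophage markers. C3, the central complement protein, had 5.03, 5.94 and 7.21 with 5-FU against 6.02, 7.03 and 7.94 with saline, and fell by 1.07 ± 0.21 (adjusted p = 0.00121). C5ar1, the receptor for the C5a fragment, fell by 1.01 ± 0.19 (adjusted p = 0.000662). Serping1, the C1 inhibitor, fell too, by 0.53 ± 0.15 (adjusted p = 0.0203).

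Of 13 chemokine genes, 4 fell (30.8%, against 7.14% of all genes) and 0 rose. Cxcl14 had 4.85, 5.62 and 7.20 with 5-FU, 5.63, 6.98 and 7.67 with saline and 4.44, 5.18 and 5.96 in PBS mice. It fell by 1.04 ± 0.14 (adjusted p = 1.37e-05), and in females its groups did not overlap (4.85 to 5.35 with 5-FU against 5.63 to 7.03 with saline). Ccl6 fell by 1.48 ± 0.20 (adjusted p = 1.84e-05) and Cxcl13, which attracts B cells, by 3.05 ± 0.43 (adjusted p = 3.35e-05). On the vessel side, 4 of 25 endothelial genes fell (16.0%, against 7.14% of all genes) and 1 rose (4.0%, against 7.27%). Selp, the adhesion molecule P-selectin that captures leukocytes, fell by 1.28 ± 0.26 (adjusted p = 0.00135), and Ackr1, a chemokine-binding receptor of venules, by 0.97 ± 0.14 (adjusted p = 5.32e-05). Apln, the vascular peptide apelin, rose by 1.45 ± 0.39 (adjusted p = 0.0115) at counts of 1 to 38 with 5-FU and 0 to 20 with saline. Fibroblast and collagen genes had 4 of 25 fallen (16.0%) and 0 risen. The fallen included Lox, the collagen cross-linking enzyme, at -1.20 ± 0.33 (adjusted p = 0.0140).

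The muscle ubiquitin ligases were mixed. Of 27 atrophy-related ligases and partners, 5 fell (18.5%, against 7.14% of all genes) and 3 rose (11.1%, against 7.27%), with a median of -0.17. Fbxo32 (ENSMUSG00000022358), which encodes atrogin-1, had values of 6.68, 8.09 and 10.16 with 5-FU, 7.49, 9.93 and 11.42 with saline and 7.15, 7.94 and 8.41 in PBS mice. The 5-FU and saline groups overlapped broadly, although 15 of 16 5-FU libraries lay below the saline mean of their sex. Fbxo32 fell by 1.15 ± 0.29 (adjusted p = 0.00819), with -1.03 in females (adjusted p = 0.398) and -1.26 in males (adjusted p = 0.0283).

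Trim63 (ENSMUSG00000028834), which encodes MuRF1, had 7.10, 8.37 and 10.47 with 5-FU against 7.95, 9.92 and 11.53 with saline, and fell by 1.03 ± 0.31 (adjusted p = 0.0224). The groups overlapped over most of their range. Fbxo31, another F-box ligase subunit raised in wasting muscle, fell by 0.62 ± 0.16 (adjusted p = 0.00851). Trim55, which encodes the sarcomeric MuRF2, rose by 0.41 ± 0.08 (adjusted p = 0.00144), and Fbxo40, a muscle ligase for the insulin receptor substrate IRS1, rose by 0.33 ± 0.09 (adjusted p = 0.0103).

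Proteasome subunits had small falls, with 11 of 32 fallen (34.4%, against 7.14% of all genes), 0 risen and a median of -0.26. In males 19 of the 32 fell (11.7% of all genes fell in males) and in females none did (0.880% of all genes). Psmc2, an ATPase of the regulatory particle, fell by 0.44 ± 0.09 (adjusted p = 0.00219) and Psmb1, a core subunit, by 0.37 ± 0.08 (adjusted p = 0.00196). Without the 7 libraries of high GC slope, 7 subunits fell. The part of the GC slope in this count was not tested.

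Of 36 autophagy and lysosome genes, 8 fell (22.2%, against 7.14% of all genes) and 0 rose, yet the median was -0.04. Map1lc3b, which encodes the autophagosome protein LC3B, fell by 0.66 ± 0.13 (adjusted p = 0.00140), the lysosomal protease genes Ctsl and Ctsd by 0.86 ± 0.21 and 0.47 ± 0.12, and Gabarap, an LC3 relative, by 0.36 ± 0.08. Of 34 FoxO and glucocorticoid targets, 7 fell (20.6%, against 7.14% of all genes) and 3 rose (8.82%, against 7.27%). Foxo1, which drives the atrophy ligases, had medians of 6.38 with 5-FU, 6.86 with saline and 4.55 in PBS mice and was not called (change -0.53 ± 0.29, adjusted p = 0.211). Fkbp5, a glucocorticoid-induced co-chaperone, had medians of 7.57, 8.13 and 5.59 in those groups and was not called (change -0.52 ± 0.19, adjusted p = 0.0579). Pdk4, which shuts off pyruvate oxidation in fasting, was not called either (change -0.39 ± 0.38, adjusted p = 0.510). Eif4ebp1, an inhibitor of cap-dependent translation, fell by 1.24 ± 0.26 (adjusted p = 0.00173).

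Of 27 NRF2 antioxidant genes, 11 fell (40.7%, against 7.14% of all genes) and 2 rose (7.41%, against 7.27%), with a median of -0.24. Nfe2l2, which encodes NRF2 itself, had 4.73, 5.15 and 5.72 with 5-FU, 5.37, 5.83 and 6.66 with saline and 5.06, 5.33 and 5.71 in PBS mice. It fell by 0.69 ± 0.11 (adjusted p = 0.000156), and the 5-FU group reached only into the lower saline values. Gpx3, a secreted glutathione peroxidase, fell by 0.88 ± 0.14 (adjusted p = 0.000154), and Hmox1, haem oxygenase 1, by 0.69 ± 0.18 (adjusted p = 0.0106). Nqo1, a classical NRF2 target, was not called (change -0.24 ± 0.09, adjusted p = 0.0761).

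Of 21 unfolded protein response genes, 5 fell (23.8%, against 7.14% of all genes) and 0 rose, with a median of -0.27. Xbp1, the transcription factor of that response, fell by 0.46 ± 0.10 (adjusted p = 0.00328), and Calr, the chaperone calreticulin, by 0.26 ± 0.06 (adjusted p = 0.00618). Of 24 genes of the ATF4 integrated stress response, 5 fell (20.8%, against 7.14% of all genes) and 1 rose (4.17%, against 7.27%). The median of that list was -0.22. Chac1, a glutathione-degrading enzyme, fell by 1.10 ± 0.26 (adjusted p = 0.00517), while Psph, of serine synthesis, rose by 0.44 ± 0.10 (adjusted p = 0.00353). Among 28 cytosolic heat shock genes 5 rose (17.9%, against 7.27% of all genes) and 1 fell (3.57%, against 7.14%). The median of these 28 was -0.08, with 9 changes above 0. The risen included the muscle small heat shock proteins Hspb2 and Hspb3 at 0.59 ± 0.18 and 0.54 ± 0.15. The fallen gene was Hsp90ab1 at -0.34 ± 0.09.

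Several fast-fibre genes, some of the contractile apparatus and some of calcium handling, were higher. Of 20 fast-fibre genes, 10 rose and 0 fell, where 7.27% of all genes rose, with a median of 0.38. Of 15 slow-fibre genes, 0 rose and 0 fell under limma, with a median of -0.17. Casq1 (ENSMUSG00000007122), the calcium store protein of fast-fibre sarcoplasmic reticulum, had values of 10.66, 11.52 and 11.92 with 5-FU, 8.56, 10.03 and 11.51 with saline and 11.27, 11.66 and 12.05 in PBS mice. All 16 5-FU libraries lay above the saline mean of their sex, and the groups overlapped through the upper saline libraries. Casq1 rose by 1.27 ± 0.22, 2.42-fold (adjusted p = 0.000252). Of 12 muscle identity genes 4 rose (Casq1, Mylpf, Myh4 and Pygm) and 0 fell. The summed level of those 12 was 144800 to 310400 with 5-FU and 111000 to 263100 with saline, on the scale of counts per M reads. Casq1, Mylpf and Myh4 were counted with the fast-fibre genes too, and Pygm with the glycolysis and glycogen genes below.

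Pvalb, the calcium buffer parvalbumin of fast fibres, had 11.74, 12.59 and 12.81 with 5-FU against 10.85, 11.63 and 12.93 with saline, and rose by 0.89 ± 0.17 (adjusted p = 0.000834). The highest library was a saline one. Myl1, a fast myosin light chain, rose by 0.78 ± 0.15 (adjusted p = 0.000815) and Tpm1, alpha-tropomyosin, by 0.66 ± 0.14 (adjusted p = 0.00192). Myh4, the type IIB myosin heavy chain, rose by 0.52 ± 0.17 (adjusted p = 0.0422). That call was kept in 15 of 39 alternative settings. Myh1 and Myh2, the IIX and IIA heavy chains, were not called (changes of -0.28 ± 0.23 and -0.03 ± 0.23). Without the 7 libraries of high GC slope 7 of the 20 rose.

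Male saline library 4 had the highest mean fast-fibre level of its group, 12.31 against a male saline median of 11.47 and a male 5-FU range of 11.95 to 12.56. The female groups overlapped, at 11.73 to 12.39 with 5-FU and 11.63 to 12.29 with saline. In males 10 of the 20 rose, where 10.3% of all genes did, and in females 0 of 20, where 0.0361% of all genes did, so the female count says little about these genes.

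Of 29 calcium release and excitability genes, 12 rose (41.4%, against 7.27% of all genes) and 0 fell, with a median of 0.32. Among the 12 were Casq1, Pvalb, Ryr1 and Cacna1s, already counted with the fast-fibre genes. Clcn1, the muscle chloride channel, had 7.33, 7.80 and 8.01 with 5-FU, 6.38, 7.09 and 7.76 with saline and 7.81, 7.98 and 8.20 in PBS mice, and rose by 0.59 ± 0.10 (adjusted p = 0.000147). Jph1 and Jph2, the junctophilins that tie the transverse tubule to the sarcoplasmic reticulum, rose by 0.44 ± 0.09 and 0.86 ± 0.19 (adjusted p = 0.00207 and 0.00238). Ryr1, the calcium release channel, and Cacna1s, its voltage sensor, each rose by 0.47. Atp2a1, the fast-fibre calcium pump, was not called (change 0.23 ± 0.15, adjusted p = 0.309). Parts of the release machinery thus rose, while the pump that refills the store did not pass the test.

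Of 18 neuromuscular junction and denervation genes, 7 rose (38.9%, against 7.27% of all genes) and 1 fell (5.56%, against 7.14%). Ache, acetylcholinesterase, rose by 0.89 ± 0.18 (adjusted p = 0.00115) and Chrne, the adult acetylcholine receptor subunit, by 0.78 ± 0.16 (adjusted p = 0.00133). Runx1, a transcription factor raised in denervated muscle, had -0.16, 1.17 and 1.84 with 5-FU, 1.10, 2.19 and 2.89 with saline and -0.02, 0.61 and 1.65 in PBS mice, and fell by 1.10 ± 0.18 (adjusted p = 0.000152). Chrna1 and Musk, the alpha subunit of the receptor and its organising kinase, were not called (changes of -0.16 ± 0.12 and 0.02 ± 0.18).

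**Figure D3:**
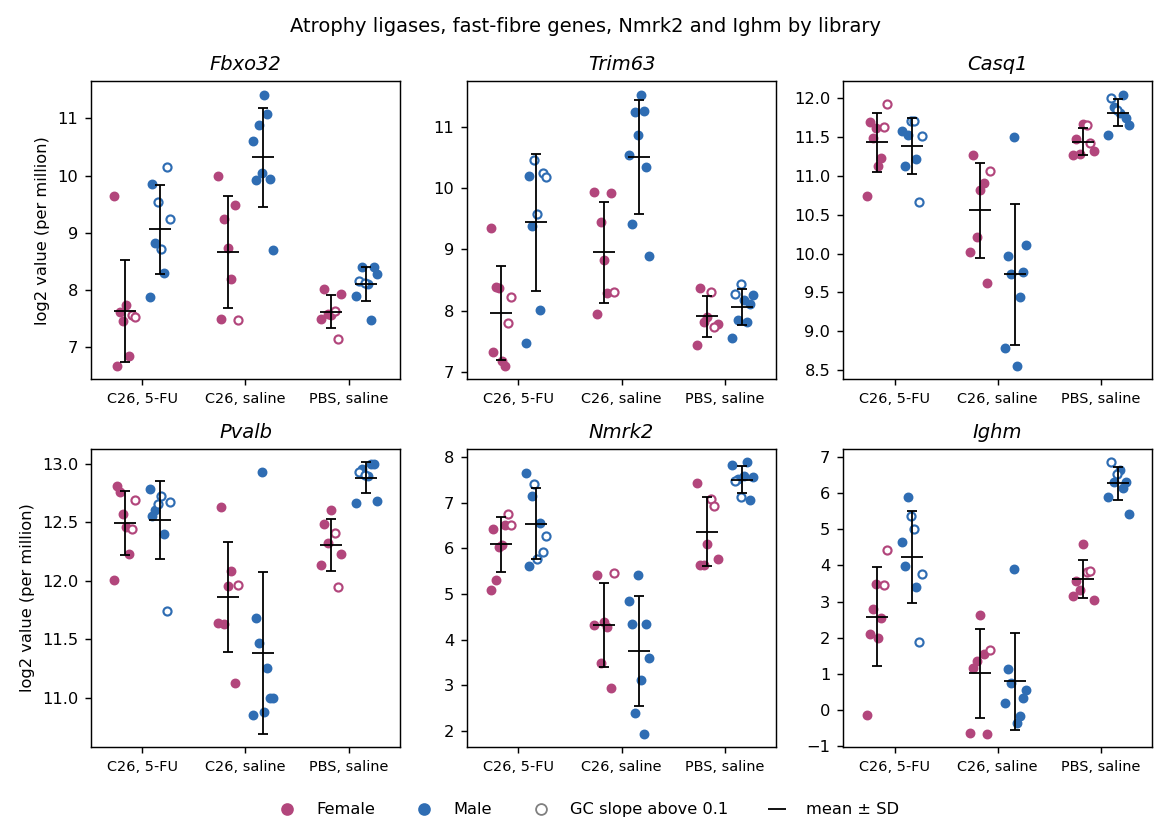
Log2 expression of atrophy ligases, fast-fibre genes, Nmrk2 and Ighm in each library of the 5-FU, saline and PBS groups, by sex, with the mean and SD of each sex; open circles are libraries with a GC slope above 0.1. Casq1 and Nmrk2 stand higher in 5-FU than in most saline libraries (medians of 11.52 against 10.03 and of 6.34 against 4.32), and the single high male saline point of Casq1, Pvalb and Ighm is library 4.

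The largest rises included several muscle genes outside those lists. Nmrk2 (ENSMUSG00000004939), a muscle kinase that makes NAD from nicotinamide riboside, had values of 5.09, 6.34 and 7.65 with 5-FU, 1.94, 4.32 and 5.46 with saline and 5.63, 7.12 and 7.88 in PBS mice. The overlap was narrow, and all 16 5-FU libraries lay above the saline mean of their sex. Nmrk2 rose 4.91-fold (log2 change 2.29 ± 0.31, adjusted p = 1.82e-05). Among 22 NAD-related genes 4 rose (18.2%, against 7.27% of all genes) and 2 fell (9.09%, against 7.14%). The 3 other risers, Parp1, Nmnat1 and Sirt3, changed by 0.25 to 0.47.

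Mybph (ENSMUSG00000042451), a myosin-binding protein of thick filaments, had 7.75, 8.91 and 10.09 with 5-FU, 2.29, 6.21 and 9.04 with saline and 6.46, 8.41 and 9.23 in PBS mice. The saline libraries were spread over a far wider range than the others. Mybph rose by 2.33 ± 0.44 (adjusted p = 0.000730), with 1.27 in females (adjusted p = 0.50) and 3.32 in males (adjusted p = 0.000655). Dusp29, a muscle dual-specificity phosphatase, rose by 2.19 ± 0.34 (adjusted p = 0.000102), and Actc1, cardiac alpha-actin, by 1.47 ± 0.29 (adjusted p = 0.00123). Also among the 12 largest rises were Mdga1, Gdap1, Pdzd7 and Nrep, at 1.67 to 1.76. Chad and Cilp2, both of cartilage and tendon matrix, rose by 2.52 ± 0.86 and 2.13 ± 0.71, but each was called in only 19 of 39 alternative settings. Within the 5-FU group Chad ran from -1.94 to 7.22 and Cilp2 from -0.80 to 6.86.

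Of 32 glycolysis and glycogen genes, 12 rose (37.5%, against 7.27% of all genes) and 1 fell (3.1%, against 7.14%), with a median of 0.24. Tpi1, triosephosphate isomerase, had 10.67, 10.87 and 11.52 with 5-FU against 9.55, 10.24 and 11.08 with saline, and rose by 0.66 ± 0.13 (adjusted p = 0.000967). Pgm1, which links glycogen to glycolysis, rose by 0.81 ± 0.18 (adjusted p = 0.00245), Pkm, pyruvate kinase, by 0.68 ± 0.15 (adjusted p = 0.00259) and Eno3, the muscle enolase, by 0.67 ± 0.16 (adjusted p = 0.00424). Ugp2, which makes the UDP-glucose used for glycogen, fell by 0.85 ± 0.28 (adjusted p = 0.0384). Pygm, the glycogen phosphorylase of muscle, rose by 0.48 ± 0.13 (adjusted p = 0.0158). The count of risen genes was 8 of 32 without the 7 libraries of high GC slope.

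Of 77 nuclear oxidative phosphorylation genes, 8 rose and 0 fell, or 10.4% against 7.27% of all genes. Their median was 0.24 and 72 of 77 changes were above 0. In males 47 rose, where 10.3% of all genes did, and in females 0 rose, where 0.0361% of all genes did. In the fit without the 7 libraries of high GC slope 1 gene rose, so the count moved with those libraries; their part in it was not tested. The 13 mitochondrially encoded genes had no call and a median of -0.13 (0.31 in females and -0.56 in males). Of 22 tricarboxylic acid cycle genes 3 rose (13.6%, against 7.27% of all genes), Idh3a by 0.39 ± 0.10 (adjusted p = 0.00627). Of 38 fatty acid oxidation genes 5 fell (13.2%, against 7.14% of all genes) and 1 rose (2.63%). The fallen included Cd36, a fatty acid transporter, at -0.75 ± 0.24, and Lpl, lipoprotein lipase, at -0.56 ± 0.19, while Esrra, a nuclear receptor of oxidative metabolism, rose by 0.55 ± 0.18. Without the 7 libraries 1 of the 38 fell and 0 rose.

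**Figure D4:**
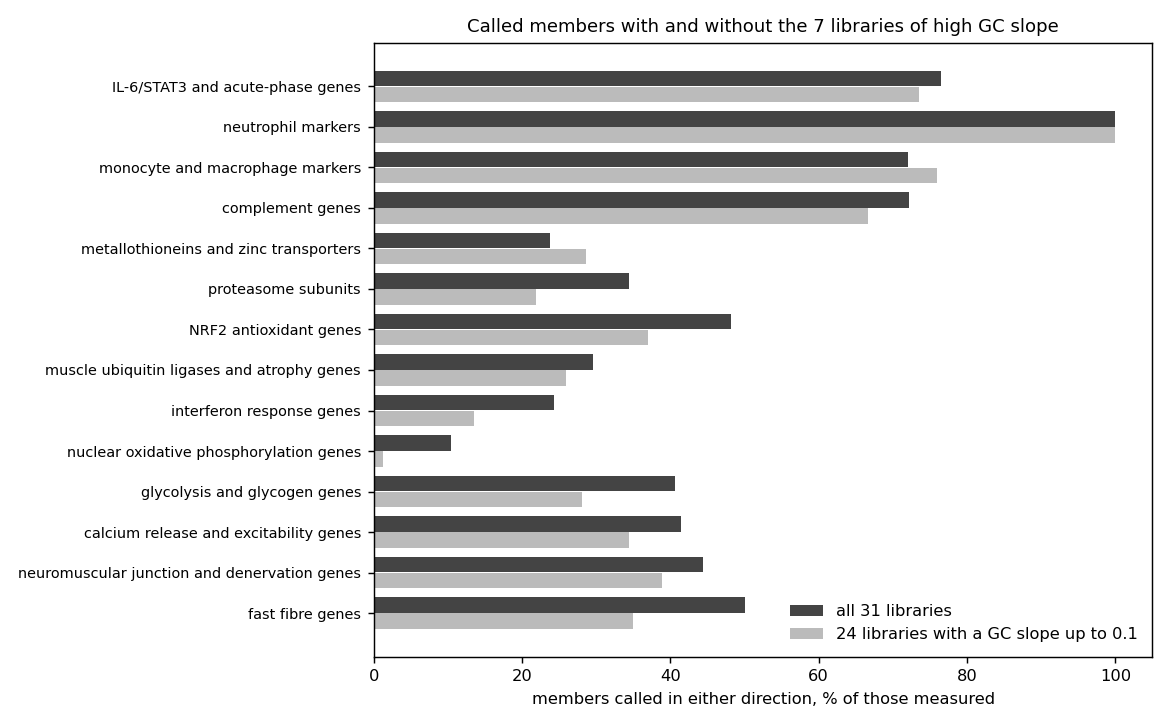
Members called in either direction, as a percentage of those measured, for 14 gene lists in all 31 libraries (dark bars) and in the 24 with a GC slope up to 0.1 (light bars). The IL-6/STAT3 and acute-phase bars differ by 1 gene (26 against 25), and the oxidative phosphorylation bars are 8 genes against 1.

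Lipid synthesis and fat-cell genes had 4 of 17 risen (23.5%, against 7.27% of all genes) and 0 fallen. The median was 0.0005, with 9 of 17 changes above 0. It was 0.42 in females and -0.16 in males, and 0 of the 17 were called in either sex. Scd1, the fatty acid desaturase, had 2.90, 6.26 and 8.97 with 5-FU, 1.29, 4.10 and 6.79 with saline and 4.22, 6.04 and 7.97 in PBS mice. The ranges overlapped widely, and Scd1 rose by 1.58 ± 0.42 (adjusted p = 0.0109). Lep, the fat-cell hormone leptin, rose by 2.02 ± 0.56 (adjusted p = 0.0147) at counts of 2 to 462 with 5-FU and 0 to 104 with saline. Adipoq, the fat-cell marker adiponectin, was not called (change -0.10 ± 0.32, adjusted p = 0.860).

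Ighm (ENSMUSG00000076617), the immunoglobulin mu heavy chain of B cells, was the largest rise of any gene that was called and averaged at least 1 on the log2 scale. It had values of -0.13, 3.47 and 5.88 with 5-FU, -0.65, 0.74 and 3.91 with saline and 3.04, 5.42 and 6.84 in PBS mice. The ranges overlapped, with 15 of 16 5-FU libraries above the saline mean of their sex. Ighm rose by 2.54 ± 0.46 (adjusted p = 0.000521), with 1.57 in females (adjusted p = 0.375) and 3.44 in males (adjusted p = 0.000873). Of 10 measured B cell and MHC class II genes 2 rose (20.0%, against 7.27% of all genes) and 0 fell. Beside Ighm, the other riser was H2-DMa at 0.51 ± 0.16. Cd74, the class II invariant chain, was not called (change 0.56 ± 0.21, adjusted p = 0.0738). Reads of immunoglobulin genes may be shared among copies.

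Of 37 interferon response genes, 7 rose (18.9%, against 7.27% of all genes) and 2 fell (5.4%, against 7.14%), with a median of 0.24. Gbp3, an interferon-induced GTPase, rose by 1.27 ± 0.30 (adjusted p = 0.00483), and Psmb9, an immunoproteasome subunit, by 0.75 ± 0.19 (adjusted p = 0.00775), while Irf9, a subunit of the interferon-activated factor, fell by 0.36 ± 0.10 (adjusted p = 0.0181). Of 8 erythroid genes 4 fell (50.0%, against 7.14% of all genes) and 1 rose (12.5%, against 7.27%). Hbb-b1, a beta-globin gene, had 5.92, 8.62 and 10.58 with 5-FU against 8.47, 9.54 and 10.39 with saline, and fell by 1.12 ± 0.29 (adjusted p = 0.00869). Some 5-FU libraries lay far below every saline library and others within their range. Alas2, of erythroid haem synthesis, fell by 1.14 ± 0.32 (adjusted p = 0.0172). The globin copies share reads. Tfrc, the transferrin receptor that takes up iron, had 1.70, 5.00 and 6.57 with 5-FU, 2.14, 3.78 and 5.16 with saline and 5.09, 6.13 and 7.20 in PBS mice, and rose by 1.34 ± 0.38 (adjusted p = 0.0183). Slc40a1, the iron exporter ferroportin, fell by 0.50 ± 0.16 (adjusted p = 0.0383).

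Pyrimidine and folate genes were called at about the rate of all genes. Of 37 measured, 3 rose (8.11%, against 7.27% of all genes) and 3 fell (8.11%, against 7.14%), with a median of 0.11. Tyms (ENSMUSG00000025747), thymidylate synthase and the target of the drug, had values of -5.20, -1.47 and -0.43 with 5-FU, -4.22, -0.56 and 0.18 with saline and -2.88, -1.10 and -0.18 in PBS mice. It was not called (change -0.79 ± 0.38, adjusted p = 0.156). Dpyd, which degrades 5-FU, was not called either (change -0.39 ± 0.14, adjusted p = 0.0554). Dut, which keeps uracil out of DNA, rose by 0.53 ± 0.12 (adjusted p = 0.00258), and Dhodh, of pyrimidine synthesis, rose by 0.44 ± 0.13 (adjusted p = 0.0179). Upp1, uridine phosphorylase, which can activate 5-FU, fell by 1.25 ± 0.27 (adjusted p = 0.00208). Upp1 was under 10 estimated counts in 12 of 16 5-FU and 2 of 15 saline libraries. Tyms was under 10 in 13 of 16 and 5 of 15, so the values of both are limited by depth.

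Of 29 p53 targets and DNA damage genes, 0 rose and 5 fell (17.2%, against 7.14% of all genes), with a median of -0.03. The 5 were Btg2, Eda2r, Sesn1, Fas and Tnfrsf10b. Eda2r, a death-domain receptor, had medians of 2.63 with 5-FU and 3.34 with saline and fell by 0.96 ± 0.25 (adjusted p = 0.00955), with -0.17 in females (adjusted p = 0.946) and -1.70 in males (adjusted p = 0.000873). Its adjusted p was 0.059 without the 7 libraries of high GC slope. Cdkn1a, the p53-induced cell cycle inhibitor p21, had medians of 5.79, 6.45 and 4.44 in 5-FU, saline and PBS libraries and was not called (change -0.74 ± 0.29, adjusted p = 0.0805). Mdm2 and Phlda3, other p53 targets, were not called (changes of -0.03 ± 0.09 and 0.03 ± 0.12).

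Of 30 ribosome biogenesis genes 6 fell (20.0%, against 7.14% of all genes) and 0 rose, among them Myc, the growth transcription factor, at -0.75 ± 0.16 (adjusted p = 0.00258) and Npm1, nucleophosmin, at -0.53 ± 0.14 (adjusted p = 0.0106). Of 78 cytosolic ribosomal protein genes 4 fell and 0 rose (5.13%), which is below the 7.14% of all genes. Of 20 cell cycle genes 2 rose (10.0%, against 7.27% of all genes) and 3 fell (15.0%).

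Growth-factor and hormone pathways gave a few named changes. Of 33 myostatin, activin and TGF-beta genes, 4 fell (12.1%, against 7.14% of all genes) and 3 rose (9.09%, against 7.27%). Tgfbr2, the type II TGF-beta receptor, had 4.72, 5.02 and 5.61 with 5-FU, 5.03, 5.80 and 6.27 with saline and 4.92, 5.17 and 5.62 in PBS mice, and fell by 0.73 ± 0.10 (adjusted p = 2.20e-05). Nog, the BMP antagonist noggin, fell by 1.03 ± 0.20 (adjusted p = 0.000815), and Gdf11, a relative of myostatin, rose by 1.05 ± 0.22 (adjusted p = 0.00187). Mstn, myostatin, was not called (change -0.25 ± 0.17, adjusted p = 0.336). Of 35 insulin, IGF and mTOR genes, 7 fell (20.0%) and 2 rose (5.71%). The fallen included Igf1, insulin-like growth factor 1, at -0.75 ± 0.24 (adjusted p = 0.0343) and Igf1r, its receptor, at -0.40 ± 0.11 (adjusted p = 0.0132). Of 14 polyamine genes 3 rose (21.4%) and 2 fell (14.3%). Smox, spermine oxidase, which is known to fall in atrophying muscle, had 6.05, 7.38 and 8.90 with 5-FU, 5.68, 6.16 and 7.80 with saline and 5.77, 7.98 and 8.57 in PBS mice. It rose by 1.18 ± 0.20 (adjusted p = 0.000295). Of 23 clock genes 3 rose (13.0%, against 7.27% of all genes) and 2 fell (8.70%, against 7.14%). Dbp, a clock output factor, rose by 1.05 ± 0.29 (adjusted p = 0.0154).

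In males alone, 3058 genes were called (22.1%), of which 1434 rose (10.3%) and 1624 fell (11.7%). In females alone, 127 were called (0.917%), of which 5 rose (0.0361%) and 122 fell (0.880%). The male count was 1367 without the libraries of high GC slope, which were 4 of 8 male 5-FU and 0 of 8 male saline libraries, and 1758 with the slope as a covariate. The female count was 801 with quality weights and 54 without female saline library 6. The part of the GC slope in the contrast of male and female counts was not tested. The direction was the same in 92 genes called in both sexes, 72.4% of the female and 3.01% of the male calls. The test of the difference between the sexes called 0 genes with limma, while 2094 had an unadjusted p under 0.05, so no gene's change was shown to differ between the sexes in this fit. That count was 471 with quality weights and 1652 with the replicate number as a block. The labels do not say whether those numbers pair the libraries. Of 15 same-numbered pairs, 6 correlated best with their own number, and which fit is right was not tested. In females 12 of 34 members of the IL-6/STAT3 list and 6 of 10 neutrophil markers fell, and in males 23 and 10 did. Of the female rises, Nmrk2 changed by 1.76 ± 0.44 (adjusted p = 0.0413) and Nes, the intermediate filament protein nestin, by 0.59 ± 0.12 (adjusted p = 0.00847). In males both rose too, by 2.79 ± 0.42 and 0.63 ± 0.11.

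The smallest p for a difference between the sexes was that of Orm1 (interaction -3.42 ± 0.65, unadjusted p = 1.10e-05, adjusted p = 0.153). Orm1 values in females were -0.98, -0.10 and 1.93 with 5-FU and -2.79, -1.38 and 0.44 with saline. In males they were -1.88, -1.08 and -0.15 with 5-FU and -0.67, 0.66 and 2.23 with saline. Medians were thus higher with 5-FU in females and lower in males. In males Orm1 fell by 1.99 ± 0.46 (adjusted p = 0.00388), and in females its change was 1.42 ± 0.47 (adjusted p = 0.205). Among genes called in males, Rpl15-ps3, a ribosomal protein pseudogene, had a fitted change of -6.21 ± 1.82 (adjusted p = 0.0165). Its male values were -6.00, -5.22 and 4.64 with 5-FU and 3.51, 4.59 and 5.09 with saline, and reads may be shared with Rpl15.

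**Figure D5:**
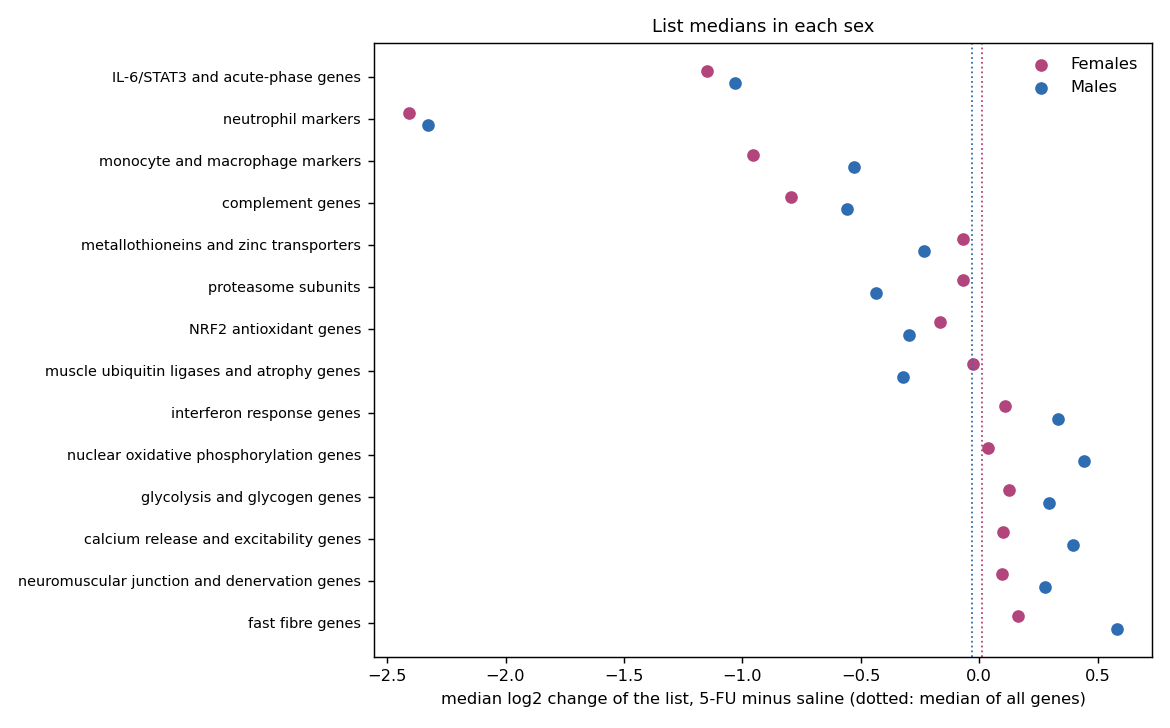
Median log2 change (5-FU minus saline) of 14 gene lists in females and in males; dotted lines mark the median over all genes in each sex. The IL-6/STAT3 and acute-phase list stood at -1.15 in females and -1.03 in males, and the fast fibre list at 0.16 in females and 0.58 in males; the difference between the sexes was not tested for lists.

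Set against the other drugs of the series, 5-FU libraries differed from 13 paclitaxel libraries in 44 genes (0.318%), of which 43 were lower with 5-FU (0.310%) and 1 higher (0.00722%), with 1362 at an unadjusted p under 0.05. The count was 11 without the libraries of high GC slope, 15 with a filter on low values and 109 with the slope as a covariate. Socs3 averaged 2.06 ± 0.75 with 5-FU and 3.41 ± 0.97 with paclitaxel (SD, n = 16 and 13), a difference of -1.37 ± 0.29 (adjusted p = 0.0283). Serpina3n averaged 3.55 ± 1.01 with 5-FU and 4.97 ± 0.96 with paclitaxel (difference -1.44 ± 0.33, adjusted p = 0.0495). Cd68, a lysosomal protein of macrophages, averaged 1.72 ± 0.57 with 5-FU and 2.79 ± 0.62 with paclitaxel (difference -1.08 ± 0.21, adjusted p = 0.0228). In the IL-6/STAT3 and acute-phase list, 5 of 34 were lower with 5-FU than with paclitaxel. Against 14 cisplatin libraries limma called 0 genes, with 1312 at an unadjusted p under 0.05.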

How the data were processed

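Bulk RNA-seq of gastrocnemius was deposited as 1 table of log2 expression for 13856 genes and 74 columns, normalized by the authors. The values follow log2 of (estimated count + 0.5) per M counts of a scaled library size, as read from the values themselves. Per the submitters' processing notes, FastQC, MultiQC, fastp, Salmon, edgeR and limma were used with build GRCm39; versions, filters and the order of steps were not given in the sources used here. Per the labels' protocols, RNA was extracted with TRIzol and libraries were read as 150-bp pairs. Salmon divides reads of near-identical genes by estimation, which affects Saa, Serpina3, Mt, globin and immunoglobulin genes.

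Columns were mapped to labels by library number, and groups were taken from titles. The library with conflicting labels was left out of every comparison. Values carry no counts, so no count model was used. limma 3.58.1 in R 4.3.3 fitted sex and treatment to 31 libraries (28 residual degrees of freedom, intensity trend), and a fit with 4 groups gave each sex and the interaction. P-values were Benjamini-Hochberg adjusted over all 13856 genes, and 0.05 was the threshold; the fits were tested on simulated data. Library measures were compared by exact permutation, two-sided, within sex. Depth was 11.4 to 40.5 M estimated counts, which limits genes under about 10 counts. The 46 lists, the members and the comparison were chosen with earlier results of these data known. Named were the 12 largest rises and falls of called genes averaging at least 1 on the log2 scale, up to 4 members of each list, 24 genes with set roles, the 5 largest each way in each sex and against each drug, and the 5 smallest interaction p-values; other list members were named after their values were seen. Some genes that these rules select are not reported here. Gene GC content (13791 genes) came from a GRCm38 annotation and promoters from RefSeq GRCm38.p6. Alternatives were all 73 grouped libraries, quantile normalization, a filter on genes averaging under 1, a pseudocount of 1, quality weights, GC slope as a covariate or as an exclusion, a replicate block, and each library left out. The closest library pair differed by more than sampling noise.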

Additional observations from a re-analysis of the deposited data

Results flagged for a closer look

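Within groups of 7 or 8 libraries, the highest or lowest value was set against Dixon's critical value for 24 genes and the library measures, and 8 of 108 tests passed it; chance passes about 1 in 20. Male saline library 4 gave 4 of the 8. Its Stat3 value of 6.687 was the lowest of its group (next 7.552, group median 7.652), its Mt2 value was 6.596 (next 8.146, median 8.513), its Tyms value was -4.218 (next -1.733) and its Ighm value of 3.91 was the highest (next 1.143). The Tyms value stands for 1 estimated count, where saline libraries had a median of 14. Without this library the count of genes called was 2300 for pooled sexes and 3773 for males, against 1996 and 3058 with it.

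In the female 5-FU group, library 1 had the highest Fbxo32 value, 9.638, with the next at 7.744 and a median of 7.542. Library 8 of that group had the lowest Tyms value, -5.203, with the next at -1.659. That Tyms value is the floor of 0 estimated counts, where 5-FU libraries had a median of 8. Female saline library 7 had a GC slope of 0.4416 against a next highest of 0.0565. Without it 3252 genes were called for pooled sexes. Male saline library 7 had 17.71% of its signal on mitochondrially encoded genes, against a next highest of 10.74%.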

How the results depend on the processing

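The pooled count of 1996 was 2409 with all 73 libraries, 2182 after quantile normalization, 1731 with a mean log2 filter, 2016 with a pseudocount of 1, 2637 with quality weights, 2645 with GC slope as a covariate and 1718 without libraries of high GC slope. Leaving out 1 library gave 1455 (without male saline 5) to 3252 (without female saline 7). The female count of 127 moved to 74 with the mean filter, 801 with quality weights, 234 with the GC covariate, and 54 (without female saline 6) to 155 with 1 library out; without female 5-FU library 4 it was 79. The male count of 3058 moved to 1758 with the GC covariate, 1367 without libraries of high GC slope, and 1806 (without male 5-FU 4) to 3773 (without male saline 4). The interaction count of 0 was 471 with quality weights, 1 without libraries of high GC slope and 0 to 1 with 1 library out. Against paclitaxel the count of 44 was 15 with the mean filter, 109 with the GC covariate and 11 without libraries of high GC slope. Against cisplatin limma called 0 genes, with 1312 at an unadjusted p under 0.05. The cause of these moves was not tested. Of 195 named genes, 179 were called, and 133 of them in every alternative that tested them. Over 7581 results of a named gene in an alternative, 365 lost the call, 33 gained it and 0 changed direction among called values.

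Replicate numbers were treated as unpaired: over 15 pairs of same-numbered 5-FU and saline libraries the correlation of deviations ran from -0.236 to 0.717, 10 were over 0.1, and 6 libraries correlated best with their own number. With the replicate block the pooled count was 2161, the female 192, the male 4660 and the interaction 1652.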

Other observations

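The library titled C26 saline but labelled 5-FU in its treatment field, from a female, entered no comparison. Its Saa3 value was -2.65, near the top of the female 5-FU range (-5.93 to -2.31) and below the female saline range (-2.18 to 0.96). Serpina3n was at 4.62, just above the 5-FU range (1.87 to 4.34) and within that of saline (4.52 to 6.74). Stat3, at 7.35, lay above the 5-FU range (5.98 to 6.86) and within the saline one (6.58 to 8.08). Tmem252, at 1.57, also lay only within the saline range (0.87 to 3.37, against -2.03 to 0.55 with 5-FU). Lcn2, at 1.05, lay only within the 5-FU range (-0.07 to 2.74, against 1.13 to 6.55 with saline), as did Trim63 at 7.45 (7.10 to 9.35, against 7.95 to 9.93). Nmrk2, at 5.06, lay just below the 5-FU range (5.09 to 6.75) and within that of saline (2.94 to 5.46). Socs3, at 3.87, lay only within the saline range (2.55 to 7.74, against 0.67 to 2.6 with 5-FU). Casq1, at 11.0, lay within both ranges, as did Mt2, Fbxo32 and Ighm.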
